A study of Mus musculus with 4 samples.

Results

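The genes described here encode the nuclear-encoded subunits of the oxidative phosphorylation machinery. They were chosen by gene name from the deposited count table: names that begin with Nduf and a subunit letter and number, the 4 Sdh genes, and names that begin with Uqcr, with Cox4 to Cox8 or with Atp5. The 1 matching name with the ending -ps was left out. This gave 78 of the 13314 genes in the table, with 36 assigned to complex I, 4 to complex II, 8 to complex III, 13 to complex IV and 17 to complex V. The rule uses gene names alone, although it was set with earlier results of these data known.

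Complexes I and II pass electrons from NADH and succinate to ubiquinone, complex III passes them to cytochrome c, and complex IV passes them to oxygen. Complexes I, III and IV pump protons across the inner mitochondrial membrane, and complex V, the ATP synthase, uses that gradient to make ATP. Complexes I, III, IV and V also hold subunits encoded in mitochondrial DNA, whereas complex II is encoded wholly in the nucleus. T cells are known to raise mitochondrial content and respiration when they leave the resting state and divide.

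The study asked what peripherally induced regulatory T (Treg) cells do, per its title. CD4 T cells of the mesenteric lymph nodes (mLN) were profiled cell by cell in droplets. The labels name the 10x 3′ v3 kit, but the cell barcodes look like those of another 10x barcode list, so which transcript end was read is uncertain here. There were 4 groups of male mice with 1 library each: Foxp3CNS1- mice colonized with fecal microbiota of specific-pathogen-free (SPF) mice, Foxp3CNS1- mice kept germ-free, Foxp3GFP mice colonized in the same way, and Foxp3GFP mice kept germ-free. Cells were taken 9 days after colonization. CNS1 is an intronic Foxp3 enhancer that takes part in the induction of Treg cells outside the thymus, and the name Foxp3CNS1- denotes its loss. Foxp3GFP is a reporter strain in which cells that express Foxp3 fluoresce green, and a GFP gate was applied in both strains. Each library pooled the lymph nodes of 3 mice and held equal parts of sorted GFP-positive and GFP-negative CD4 T cells, so its share of Treg cells was set by the sort. About 5000 cells were targeted per library. The ages of the mice are not given in the labels.

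After the authors' filter, 16948 cells were analysed. The colonized Foxp3CNS1-, germ-free Foxp3CNS1-, colonized Foxp3GFP and germ-free Foxp3GFP libraries held 5406, 3533, 4030 and 3979 cells, between 9360112 and 17929193 unique molecular identifiers (UMIs, 1 per captured transcript end) in all, and a median of 2286 to 2832 UMIs per cell. The 8 CD4 T cell markers examined were all detected, at a summed 4925 to 5277 CPM (counts scaled to the library's total of UMIs) per library. The 1 erythroid marker in the table was at or near 0, and the 6 B cell markers summed to 19.0 to 22.3 CPM. The 4 plasma cell markers summed to 102 CPM in the colonized Foxp3CNS1- library, 2.67 in the germ-free Foxp3CNS1- library, 80.0 in the colonized Foxp3GFP library and 1.02 in the germ-free Foxp3GFP library. A UMI of the stress genes Hspa1a or Hspa1b was present in 8.84% and 9.95% of the cells of the colonized Foxp3CNS1- and Foxp3GFP libraries, against 0.340% and 0.226% of the cells of the matching germ-free libraries. Of the cell barcodes, 157 occurred in more than 1 library, which involved 314 analysed cells. With 1 library per group no comparison has a replicate, no test was made, and group, library and batch cannot be told apart. Intervals given below are exact 95% intervals (Clopper-Pearson) that cover counting error only. Transcripts with near-identical processed pseudogenes may have gained or lost reads in the authors' counting.

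Many nuclear genes of the respiratory chain are known targets of NRF1 and of ETS-family factors such as GABP, and the stretches upstream of 5 members are shown to place these motifs. The 5 were picked with the values known. Sdhd, Cox6a1 and Atp5k hold a match to the NRF1 motif, spelled GCGC, any base and TGCGC, and Cox5a and Cox7a2l, whose values below stand farthest apart among the complex IV genes, hold none. Each line gives the 250 bases before the RefSeq start on GRCm38.p6, with matches to the NRF1 motif or to the ETS motif CCGGAAG on either strand in capitals. The windows are chr9:50603850-50604099 on the minus strand for Sdhd, chr5:115348959-115349208 on the minus strand for Cox6a1, chr5:108434400-108434649 on the minus strand for Atp5k, chr9:57520982-57521231 on the plus strand for Cox5a and chr17:83514334-83514583 on the minus strand for Cox7a2l.
Sdhd: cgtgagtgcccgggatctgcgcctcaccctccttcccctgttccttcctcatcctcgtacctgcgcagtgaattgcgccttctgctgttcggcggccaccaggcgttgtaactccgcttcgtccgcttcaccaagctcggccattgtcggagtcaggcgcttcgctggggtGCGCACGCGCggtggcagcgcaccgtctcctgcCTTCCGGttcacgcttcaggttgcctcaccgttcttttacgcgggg
Cox6a1: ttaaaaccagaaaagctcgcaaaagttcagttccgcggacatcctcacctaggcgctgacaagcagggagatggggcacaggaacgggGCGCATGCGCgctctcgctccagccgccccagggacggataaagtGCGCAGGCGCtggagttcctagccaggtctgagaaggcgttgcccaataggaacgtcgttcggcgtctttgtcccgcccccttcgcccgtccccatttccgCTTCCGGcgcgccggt
Atp5k: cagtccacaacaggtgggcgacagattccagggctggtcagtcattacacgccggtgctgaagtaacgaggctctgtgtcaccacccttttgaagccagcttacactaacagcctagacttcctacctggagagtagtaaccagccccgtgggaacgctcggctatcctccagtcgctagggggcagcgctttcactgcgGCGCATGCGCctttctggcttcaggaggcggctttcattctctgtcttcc
Cox5a: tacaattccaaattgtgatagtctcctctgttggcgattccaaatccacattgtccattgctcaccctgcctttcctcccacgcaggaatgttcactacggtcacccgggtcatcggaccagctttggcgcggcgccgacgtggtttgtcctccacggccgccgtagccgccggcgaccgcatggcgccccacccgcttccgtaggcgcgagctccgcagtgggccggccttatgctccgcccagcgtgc
Cox7a2l: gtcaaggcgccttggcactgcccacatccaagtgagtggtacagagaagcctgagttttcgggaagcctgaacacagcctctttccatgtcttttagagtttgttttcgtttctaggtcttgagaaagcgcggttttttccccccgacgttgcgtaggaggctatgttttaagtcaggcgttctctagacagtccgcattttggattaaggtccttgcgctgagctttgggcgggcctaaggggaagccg
The first base of the NRF1 match lies 79 bases before the start of Sdhd and 50 bases before that of Atp5k. Cox6a1 holds such matches at 162 and 117 bases before its start, and an ETS match at 16 bases. The ETS match of Sdhd lies 46 bases before its start. The Cox7a2l window lies inside the span that the GENCODE annotation gives the gene, so the bases before its GENCODE start were not searched.

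RefSeq windows were found for 66 of the 78 members. The NRF1 motif occurred upstream of 13 of the 66, or 19.7%, against 9.47% of the 10051 genes of the table with a window and 4.23% of all 27025 genes with one. The ETS motif occurred upstream of 12 members, or 18.2%, against 16.3% of the genes of the table. The YY1 motif AAGATGGC occurred upstream of 1 member, or 1.52%, against 2.59%. The Sp1 motif GGGCGG occurred upstream of 24 members, or 36.4%, against 61.9%, and the CCAAT motif upstream of 29, or 43.9%, against 40.6%. Thus the NRF1 letters were more frequent, and the Sp1 letters less frequent, among the members than among the genes of the table. Over all 27025 genes the shares were 7.83% for ETS, 1.83% for YY1, 35.4% for Sp1 and 37.5% for CCAAT. Against these, the Sp1 share of the members was about level and their ETS share was higher. The ETS, NRF1 and Sp1 motifs do not contain each other, both strands were searched, and a match is a description of the sequence and not a binding site.

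The 78 genes took a sizeable part of the RNA. Their UMIs were 2.55% of the total in the colonized Foxp3CNS1- library, 2.33% in the germ-free Foxp3CNS1- library, 2.40% in the colonized Foxp3GFP library and 2.18% in the germ-free Foxp3GFP library. An average cell of these libraries held 84.5, 61.7, 79.9 and 58.9 member UMIs in the same order, and no analysed cell was without a member UMI. Of the members, 44 were among the 500 genes of most UMIs. Complex V and complex I had the highest summed levels, and complex II the lowest, in each library. These sums run over 17, 36 and 4 genes, so their order is not that of the level per gene.

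Levels of single genes can be set side by side here, because UMI counts from 1 transcript end do not grow with transcript length, although genes can differ in capture. Cox4i1, a core structural subunit of cytochrome c oxidase, had the most UMIs of the members, with 1021 CPM in the colonized Foxp3CNS1-, 950 in the germ-free Foxp3CNS1-, 971 in the colonized Foxp3GFP and 964 in the germ-free Foxp3GFP library. Uqcrh, the hinge protein of complex III, followed at 886, 811, 842 and 807 CPM in the same order of libraries. The highest members of complex V were Atp5l, its subunit g, with 647 to 778 CPM over the libraries, Atp5e, the epsilon subunit, with 612 to 748 CPM, and Atp5h, subunit d of the peripheral stalk, with 560 to 669 CPM. In complex IV, Cox8a, a small membrane subunit, had 568 to 707 CPM and Cox7a2l, described below, 729 to 809 CPM. Within complex I the accessory subunits Ndufa4 (455 to 557 CPM), Ndufa13 (422 to 538 CPM) and Ndufa3 (361 to 426 CPM) were highest. Ndufa4 is named as a complex I gene and counted there, but its protein is now placed in complex IV. The lowest member of complex I was Ndufs1, the iron-sulfur subunit of its NADH dehydrogenase module, at 34.4 to 37.8 CPM. In complex II the iron-sulfur subunit Sdhb had 180 to 225 CPM, the flavoprotein Sdha 133 to 151 CPM and the membrane anchor Sdhd 70.8 to 88.1 CPM. The small complex III subunits Uqcr10 (289 to 346 CPM) and Uqcrq (268 to 325 CPM) came after Uqcrh. The spread between subunits of the same complex was thus far wider than the spread of any of these genes over the 4 libraries. Ndufs1 was picked for mention after its values were seen.

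**Figure D1:**
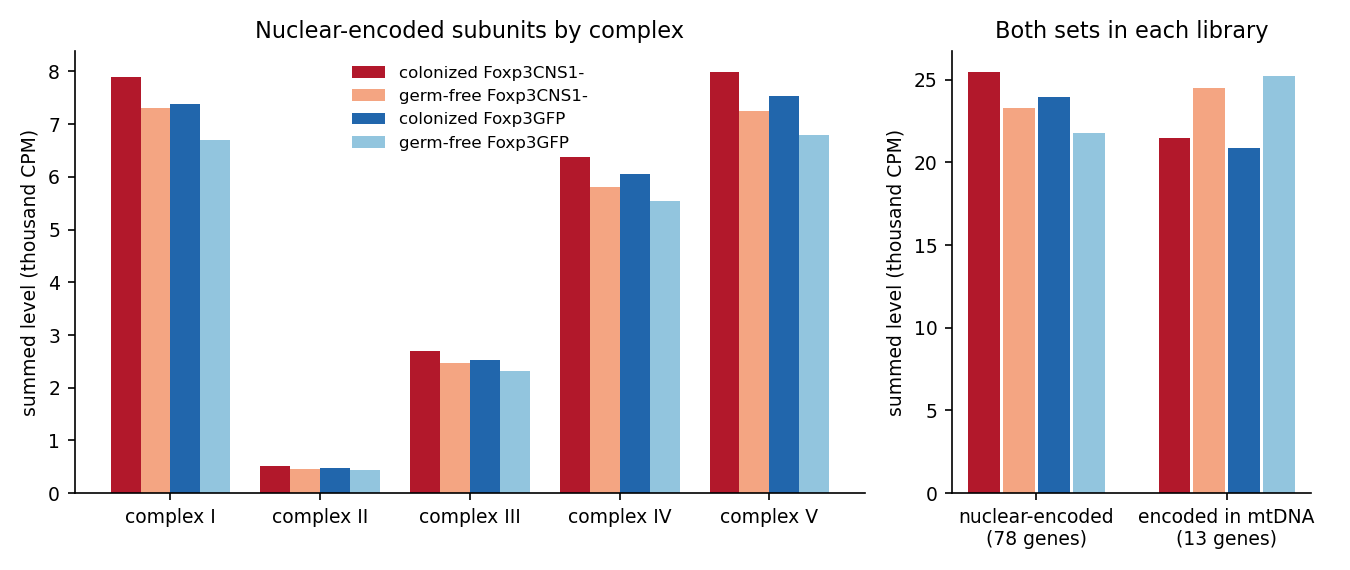
Summed level of the subunit genes in CPM, scaled as marked on the y axis, for each complex (left) and for the nuclear-encoded genes and the 13 genes encoded in mitochondrial DNA (right); each bar is 1 library. Nuclear-encoded genes are higher in the colonized than in the germ-free library of each strain (25474 against 23280 CPM in Foxp3CNS1-, 23976 against 21796 CPM in Foxp3GFP), and genes encoded in mitochondrial DNA are lower.

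The first comparison asks how these genes differed 9 days after colonization. In both strains the nuclear-encoded subunits were slightly higher in the colonized library, by about the same amount, and the genes of each of the 5 complexes were higher as a sum. The summed level was 25474 CPM in colonized and 23280 CPM in germ-free Foxp3CNS1- cells, a log2 ratio of 0.13 (0.12 to 0.14). In Foxp3GFP cells it was 23976 CPM after colonization and 21796 CPM in germ-free mice, a log2 ratio of 0.14 (0.13 to 0.15). The change was thus small for a typical gene but was seen in most of them.

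By complex, the summed log2 ratio of colonized to germ-free Foxp3CNS1- cells was 0.11 for complex I, 0.19 for complex II, 0.14 for complex III, 0.13 for complex IV and 0.14 for complex V. In Foxp3GFP cells the same ratios were 0.14, 0.13, 0.12, 0.13 and 0.15. The order of the complexes differed between the strains.

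Of the 78 members, 76 had at least 50 UMIs over the libraries compared; Cox6b2 and Cox7a1 did not. Among the 76, 71 had a ratio above 1 in Foxp3CNS1- cells, where 43.7% of the 10204 genes tested had one, and 74 in Foxp3GFP cells, where 47.7% of 9990 genes had one. The median log2 ratio of these members was 0.13 in Foxp3CNS1- and 0.15 in Foxp3GFP cells, beside medians of -0.04 and -0.01 over all genes tested. A gene was called when its ratio passed 1.2-fold and its interval left out a ratio of 1. By this rule 4 members rose in Foxp3CNS1- cells, against a background of 7.61% of genes called higher, and 6 rose in Foxp3GFP cells, against 11.2%. Both counts were a smaller share of the 76 members than the background. No member fell by this rule in either strain, where 12.2% and 11.3% of genes were called lower. With each cell thinned to 1000 UMIs, 5 members rose and 1, Ndufs1, fell in Foxp3GFP cells. Past 1.1-fold 36 members rose in Foxp3CNS1- cells (background 12.7%) and 43 in Foxp3GFP cells (background 16.3%), and 0 fell in either, where 16.1% and 14.8% of genes did.

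**Figure D2:**
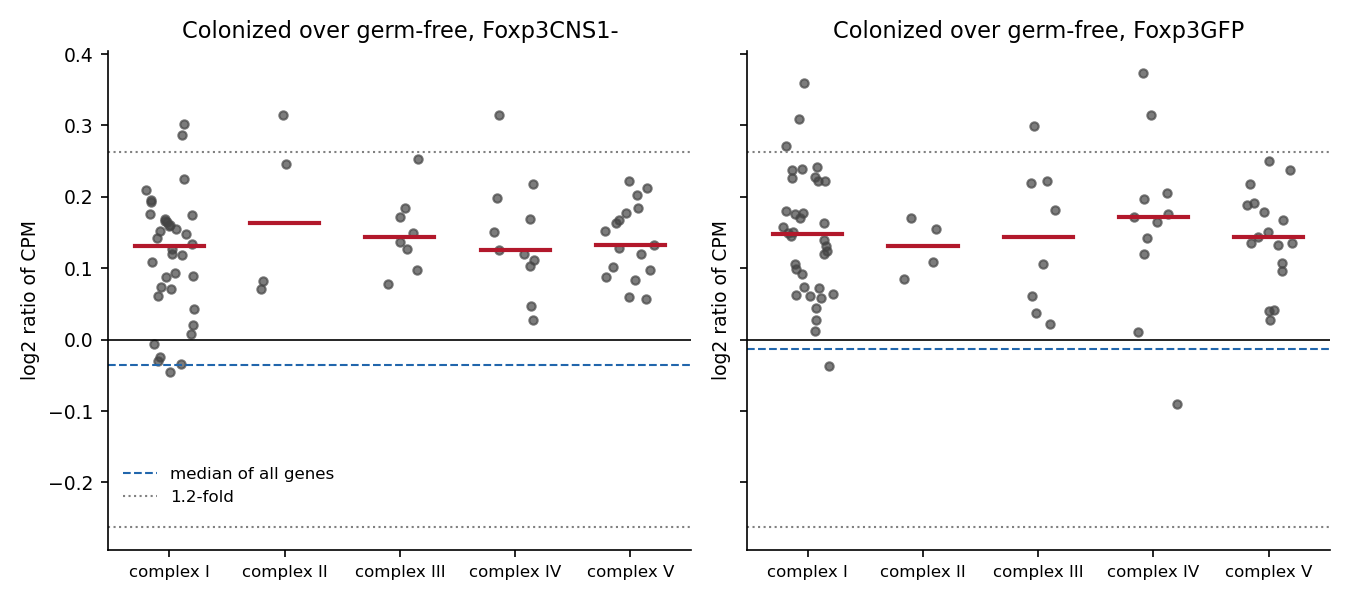
Log2 ratio of CPM in the colonized over the germ-free library (y axis) for each member with at least 50 UMIs, by complex, in Foxp3CNS1- (left) and Foxp3GFP cells (right); red lines are medians of a complex, the dashed line is the median of all genes and dotted lines mark 1.2-fold. Most points lie between 0 and the 1.2-fold line, with Cox5a past it in both strains and Cox7a2l at -0.09 in Foxp3GFP.

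Cox5a and Ndufa9 rose in both strains. Cox5a, a matrix-facing subunit of cytochrome c oxidase, had 360 CPM in the colonized and 289 CPM in the germ-free Foxp3CNS1- library, a log2 ratio of 0.31 (0.25 to 0.38), and 345 CPM in the colonized and 267 CPM in the germ-free Foxp3GFP library, a log2 ratio of 0.37 (0.31 to 0.44). Ndufa9, an accessory subunit near the ubiquinone site of complex I, had 93.9 and 76.2 CPM in colonized and germ-free Foxp3CNS1- cells, a log2 ratio of 0.30 (0.17 to 0.43). In Foxp3GFP cells Ndufa9 had 86.1 CPM after colonization and 69.5 CPM in germ-free mice, a log2 ratio of 0.31 (0.17 to 0.44). For both genes each colonized library was above each germ-free library. On mm10 (GENCODE M21), Cox5a spans chr9:57521274-57532426 on the plus strand and Ndufa9 spans chr6:126821721-126849136 on the minus strand.

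Cox5b, the neighbouring zinc-binding subunit of complex IV, rose in Foxp3GFP cells, with 414 CPM in the colonized and 333 CPM in the germ-free library and a log2 ratio of 0.31 (0.25 to 0.38). In Foxp3CNS1- cells Cox5b had 440 and 384 CPM, a log2 ratio of 0.20 (0.14 to 0.26) that did not reach the fold. Uqcrc2, a core subunit of complex III, had 161 and 131 CPM in colonized and germ-free Foxp3GFP cells, a log2 ratio of 0.30 (0.20 to 0.40), and 166 and 140 CPM in Foxp3CNS1- cells, a log2 ratio of 0.25 (0.16 to 0.35). Both genes were therefore higher after colonization in each strain and passed the fold in Foxp3GFP.

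Ndufa12 and Ndufa1, accessory subunits of complex I, rose in Foxp3GFP cells. Ndufa12 had 168 CPM in the colonized and 131 CPM in the germ-free Foxp3GFP library, a log2 ratio of 0.36 (0.26 to 0.46), beside 171 and 154 CPM in Foxp3CNS1- cells, a log2 ratio of 0.14 (0.05 to 0.23). Ndufa1, an X-linked gene, had 237 and 197 CPM in colonized and germ-free Foxp3GFP cells, a log2 ratio of 0.27 (0.19 to 0.35), and 248 and 246 CPM in Foxp3CNS1- cells, a log2 ratio of 0.01 (-0.06 to 0.08). The germ-free Foxp3GFP library was the lowest of the 4 for both genes.

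Sdhd and Ndufa4 rose in Foxp3CNS1- cells. Sdhd, a membrane anchor of succinate dehydrogenase, had 88.1 CPM in the colonized and 70.8 CPM in the germ-free Foxp3CNS1- library, a log2 ratio of 0.31 (0.18 to 0.45). In Foxp3GFP cells Sdhd had 83.0 and 77.0 CPM, a log2 ratio of 0.11 (-0.02 to 0.24). Ndufa4 had 557 and 457 CPM in colonized and germ-free Foxp3CNS1- cells, a log2 ratio of 0.29 (0.23 to 0.34), beside 494 and 455 CPM in Foxp3GFP cells, a log2 ratio of 0.12 (0.07 to 0.17). The colonized Foxp3CNS1- library was the highest of the 4 for both genes.

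Cox7a2l went against the rest of its complex in Foxp3GFP cells. Its protein, also known as SCAF1, links complexes III and IV in respiratory supercomplexes, and the gene spans chr17:83501918-83517330 on the minus strand of mm10. It had 760 CPM in the colonized and 809 CPM in the germ-free Foxp3GFP library, a log2 ratio of -0.09 (-0.13 to -0.05) that did not reach the fold, and 743 and 729 CPM in Foxp3CNS1- cells, a log2 ratio of 0.03 (-0.02 to 0.07). Both values of Cox7a2l depend on the processing. In Foxp3GFP cells its log2 ratio was -0.03 with equal weight per cell, -0.03 with a fixed cluster mix and 0.00 with each cell thinned to 1000 UMIs. In Foxp3CNS1- cells it was 0.09, 0.12 and 0.11 under the same alternatives, and -0.003 with ribosomal protein and mitochondrially encoded genes left out of the total. In both strains the 2 most abundant members lay below the member median, although Uqcrh was close to it in Foxp3CNS1- cells (0.127 beside 0.133). The log2 ratio of Cox4i1 was 0.10 (0.07 to 0.14) in Foxp3CNS1- and 0.01 (-0.03 to 0.05) in Foxp3GFP cells, and that of Uqcrh was 0.13 (0.09 to 0.17) and 0.06 (0.02 to 0.10).

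Subassemblies differed slightly. In complex V the 5 subunits of the catalytic F1 head had median log2 ratios of 0.16 in Foxp3CNS1- and 0.19 in Foxp3GFP cells, the 4 peripheral stalk subunits 0.15 and 0.13, and the 3 genes of the c-ring 0.06 and 0.04. The 7 nuclear-encoded core subunits of complex I had medians of 0.13 and 0.11. Each of the F1, stalk and c-ring genes had a ratio above 1 in both strains.

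The subunits encoded in mitochondrial DNA went the other way. These 13 genes are transcribed inside the organelle and their proteins join the same complexes. Their summed level was 21495 CPM in colonized and 24526 CPM in germ-free Foxp3CNS1- cells, a log2 ratio of -0.19 (-0.20 to -0.18), and 20877 and 25242 CPM in colonized and germ-free Foxp3GFP cells, a log2 ratio of -0.27 (-0.28 to -0.27). Of the 13 genes, 13 had a ratio below 1 in Foxp3CNS1- and 12 in Foxp3GFP cells, and 6 and 8 fell past 1.2-fold. Among all genes tested, 12.2% and 11.3% were called lower. Nuclear-encoded over mitochondrially encoded UMIs came to 1.19 in colonized and 0.949 in germ-free Foxp3CNS1- cells, and to 1.15 in colonized and 0.863 in germ-free Foxp3GFP cells. The share of mitochondrially encoded UMIs is also used as a sign of cell quality in droplet data, and its part in the difference of the nuclear-encoded genes was not tested.

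Other genes of mitochondrial energy metabolism were read from lists, beside the shares of all genes given above: 43.7% higher and 7.61% called higher in Foxp3CNS1- cells, and 47.7% and 11.2% in Foxp3GFP cells. Of the 4 subunits or close partners whose names the rule does not catch (Cyc1, Cycs, Ndufab1 and Atpif1), 4 were higher after colonization in both strains, with medians of 0.18 in Foxp3CNS1- and 0.24 in Foxp3GFP cells; 0 and 2 passed the fold. Among 48 assembly factors, 29 and 31 were higher, with medians of 0.05 and 0.07. Among 17 tricarboxylic acid cycle genes 13 and 14 were higher, with medians of 0.09 and 0.18. For 78 mitochondrial ribosomal proteins 64 and 60 were higher and the median was 0.12 in each strain, while 6 and 8 of them rose past the fold, near the share of all genes. For 23 import translocases 19 were higher in each strain, with medians of 0.14 and 0.11.

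Glycolysis genes also differed. Their summed log2 ratio was 0.23 (0.21 to 0.25) in Foxp3CNS1- and 0.28 (0.26 to 0.30) in Foxp3GFP cells, and 7 and 11 of 18 rose past the fold, with 0 and 1 that fell. Ldha, the lactate dehydrogenase subunit typical of dividing cells, had 748 and 546 CPM in colonized and germ-free Foxp3CNS1- cells and 702 and 522 CPM in Foxp3GFP cells, with log2 ratios of 0.45 (0.41 to 0.50) and 0.43 (0.38 to 0.48), and was picked after its values were seen. Of 13 regulators of mitochondrial genes, such as Nrf1, Tfam and Yy1, 6 were higher in Foxp3CNS1- and 5 in Foxp3GFP cells, with medians of -0.10 and -0.07. Past the fold, 1 rose and 2 fell in Foxp3CNS1- cells, and 0 rose and 2 fell in Foxp3GFP cells. Of all genes tested, 12.2% and 11.3% were called lower, so the 2 regulators that fell were near that share. Cytosolic ribosomal proteins had medians of -0.02 and -0.03.

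Markers of cell types also differed between the colonized and germ-free libraries. The 10 cycling markers summed to 1172 CPM in colonized and 621 CPM in germ-free Foxp3CNS1- cells, and to 972 and 585 CPM in colonized and germ-free Foxp3GFP cells, and 10 of 10 rose past the fold in both strains. Of 8 effector markers 6 rose past the fold in each strain. Of 8 follicular helper markers 1 rose and 5 fell in Foxp3CNS1- cells, and 2 rose and 4 fell in Foxp3GFP cells. What part cell composition had in the subunit ratios was not tested. With the mix of clusters held fixed, the log2 ratio of the summed subunit genes was 0.07 (0.06 to 0.07) in Foxp3CNS1- and 0.09 (0.08 to 0.09) in Foxp3GFP cells. These were below the values of 0.13 and 0.14 from all cells, and 0 and 2 members passed 1.2-fold in place of 4 and 6. The median over all genes was also lower with the mix fixed, at -0.07 and -0.05 beside -0.04 and -0.01. The member median was then 0.07 and 0.09 in place of 0.13 and 0.15. Without the cells that held a Hspa1a or Hspa1b UMI the ratios were 0.13 in both strains, and without cells holding at least 2 UMIs of the B and plasma cell lists they were 0.13 and 0.14.

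The second comparison asks how the strains differed. Foxp3CNS1- cells had slightly more subunit RNA than Foxp3GFP cells, both germ-free and colonized. The summed level was 23280 CPM in germ-free Foxp3CNS1- and 21796 CPM in germ-free Foxp3GFP cells, a ratio of 1.07 and a log2 ratio of 0.10 (0.09 to 0.10). After colonization it was 25474 CPM in Foxp3CNS1- and 23976 CPM in Foxp3GFP cells, a ratio of 1.06 and a log2 ratio of 0.09 (0.08 to 0.09). These comparisons use the same 4 libraries as those of colonization.

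Markers of cell types differed between the strains as well, and the part of cell composition in the strain ratios was not tested. All 8 naive markers were lower in Foxp3CNS1- than in Foxp3GFP cells in both settings, with median log2 ratios of -0.29 in germ-free and -0.22 in colonized mice, and summed to 2058 and 2427 CPM in germ-free Foxp3CNS1- and Foxp3GFP cells and to 1919 and 2197 CPM after colonization. Of the 10 cycling markers 5 were higher in germ-free and 10 in colonized Foxp3CNS1- cells, with medians of 0.07 and 0.25, and of the 8 Tfh (follicular helper) markers 7 and 6 were higher, with medians of 0.28 and 0.25. With the cluster mix held fixed, the log2 ratio of the summed subunit genes was 0.07 in germ-free mice and 0.05 (0.04 to 0.05) in colonized mice. The median over all genes was then 0.02 and 0.001, beside 0.05 and 0.03 without this step.

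Among germ-free mice 71 of 76 members had a ratio of Foxp3CNS1- to Foxp3GFP above 1, where 60% of 9774 genes did, with a median of 0.11 beside 0.05 over all genes. In colonized mice 71 of 77 did, where 56.7% of 10336 genes did, with a median of 0.09 beside 0.03. Past 1.2-fold 2 members were higher in germ-free mice (background 8.21%) and 0 in colonized mice (background 4.82%); none was lower, against 3.12% and 4.06%. Past 1.1-fold 27 members were higher in germ-free mice (background 13.7%) and 12 in colonized mice (background 10.2%), and 1 and 0 were lower (background 4.74% and 6.33%). The counts past 1.2-fold were thus below the background, whereas the share of small positive ratios was above it.

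The 2 members called in germ-free mice belong to complex I. Ndufa1 had 246 CPM in germ-free Foxp3CNS1- and 197 CPM in germ-free Foxp3GFP cells, a log2 ratio of 0.32 (0.24 to 0.41). Ndufb2, a small membrane-arm subunit, had 126 and 103 CPM, a log2 ratio of 0.29 (0.17 to 0.41). In colonized mice Ndufa1 had 248 CPM in Foxp3CNS1- and 237 CPM in Foxp3GFP cells, and Ndufb2 had 133 and 122 CPM. Cox7a2l again lay on the other side, with 729 and 809 CPM in germ-free Foxp3CNS1- and Foxp3GFP cells, a log2 ratio of -0.15 (-0.20 to -0.11) that passed 1.1-fold but not 1.2-fold.

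By complex, the summed log2 ratio of Foxp3CNS1- to Foxp3GFP in germ-free mice was 0.13 for complex I, 0.05 (-0.01 to 0.11) for complex II, 0.08 for complex III, 0.07 for complex IV and 0.09 for complex V. In colonized mice it was between 0.07 and 0.11 for each of the 5 complexes. The mitochondrially encoded genes had no common direction by strain: their summed log2 ratio was -0.04 (-0.05 to -0.03) without microbiota and 0.04 (0.04 to 0.05) with it, where it turned to just below 0 in a total without ribosomal protein and mitochondrially encoded genes. These strain ratios depend on the scaling. With ribosomal protein and mitochondrially encoded genes left out of the total, the log2 ratio of the summed subunit genes was 0.05 (0.04 to 0.05) without microbiota and 0.04 (0.04 to 0.05) with it. Cytosolic ribosomal protein genes took 37.3% of UMIs in germ-free Foxp3CNS1- and 39.3% in germ-free Foxp3GFP cells, and 36.4% and 38.2% in colonized Foxp3CNS1- and Foxp3GFP cells.

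The difference between the colonization log2 ratios of the strains (Foxp3CNS1- minus Foxp3GFP) was small for most members, with a median of -0.02 over the 78 and of -0.02 over 10093 genes. Its counting interval lay below 0 for 10 members and above 0 for 7. The matching share of all genes was not counted, so these counts do not set the members apart from other genes. Among members whose interval left out 0, the farthest below were Ndufa1, at -0.26 (-0.37 to -0.16), Ndufa3, at -0.25 (-0.33 to -0.17), and Ndufa12, at -0.22 (-0.35 to -0.09), all accessory subunits of complex I. Among the 7 above 0, the highest were Sdhd, at 0.21 (0.02 to 0.39), Ndufa4, at 0.17 (0.09 to 0.24), and Uqcrfs1, the Rieske iron-sulfur protein of complex III, at 0.15 (0.03 to 0.27). Uqcrfs1 was named after its values were seen. Ndufa3 had 419 and 426 CPM in colonized and germ-free Foxp3CNS1- cells and 422 and 361 CPM in colonized and germ-free Foxp3GFP cells. For Ndufa1, Ndufa3 and Ndufa12 the germ-free Foxp3GFP library stood below the others, and the spread between libraries of 1 group, which these intervals leave out, was not measured.

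Within clusters the difference with colonization was uneven. The authors' 10 clusters carry numbers only. From their markers, clusters 0, 3 and 6 were Treg-like, 1 and 2 naive-like, 5 effector-like, 8 cycling-like and 9 follicular-helper-like, and clusters 4 and 7 stayed unnamed. The 10 leading genes of clusters 3 and 6 held no marker of the Treg list, and those of cluster 3 held Ccl5 of the CD8 or NK list, so clusters are given by number. The log2 ratio of the summed subunit genes was highest in cluster 7, where 8 of the 10 cycling markers passed 1.5 times their level in the rest: 0.26 (0.23 to 0.30) in Foxp3CNS1- and 0.27 (0.23 to 0.30) in Foxp3GFP cells. Cluster 7 had 28363 CPM of subunit genes in colonized and 23633 CPM in germ-free Foxp3CNS1- cells, and 26879 and 22350 CPM in colonized and germ-free Foxp3GFP cells.

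In clusters 0, 1, 2, 4, 5 and 6 the ratio was positive in both strains, between 0.04 and 0.12 in Foxp3CNS1- and between 0.07 and 0.15 in Foxp3GFP cells. In cluster 3 it was 0.01 (-0.02 to 0.03) in Foxp3CNS1- and -0.02 (-0.05 to 0.01) in Foxp3GFP cells, with subunit levels of 25044 and 24931 CPM in colonized and germ-free Foxp3CNS1- cells and of 24121 and 24521 CPM in Foxp3GFP cells. Cluster 3 also held most of the plasma cell marker RNA, at 551 CPM over all libraries, and the part of this in its ratios was not tested. In cluster 8 it was 0.05 (0.02 to 0.07) in Foxp3CNS1- and 0.01 (-0.01 to 0.03) in Foxp3GFP cells, and the Foxp3CNS1- value turned to -0.0522 (-0.11 to 0.01) with each cell thinned to 1000 UMIs. In cluster 9, which held 17 to 25 cells per library, it was -0.13 (-0.24 to -0.03) and -0.07 (-0.17 to 0.02). The ratios of clusters 3 and 8 thus lay near 1 in both strains, and those of cluster 7 were above the ratios of all cells together.

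Counts of members did not follow the order of these ratios throughout. In cluster 7, 64 of 74 members that passed the minimum were higher after colonization in Foxp3CNS1- cells (background 60.1%) and 65 of 75 in Foxp3GFP cells (background 57.1%). In naive-like cluster 2 these counts were 58 of 76 (background 46.5%) and 66 of 76 (background 48.5%). In cluster 3 they were 41 of 76 (background 41.7%) and 28 of 75 (background 40.9%), and in cluster 8 they were 48 of 76 (background 56.7%) and 41 of 76 (background 52.3%). In clusters 0, 1, 4, 5 and 6 of Foxp3CNS1- cells, 45, 52, 47, 64 and 43 of 76 members were higher, beside 38.9%, 44.7%, 49%, 47.9% and 46.3% of all genes. In the same clusters of Foxp3GFP cells, 55, 59, 63, 51 and 60 of 76 were higher, beside 44%, 46.4%, 53.6%, 52.3% and 47.9%. In cluster 9 these were 9 of 22 (background 56.1%) and 14 of 31 (background 51.8%), since few members passed the minimum there. Glycolysis genes also differed in cluster 7, with 5547 and 3648 CPM in colonized and germ-free Foxp3CNS1- cells and 5000 and 3342 CPM in Foxp3GFP cells.

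**Figure D3:**
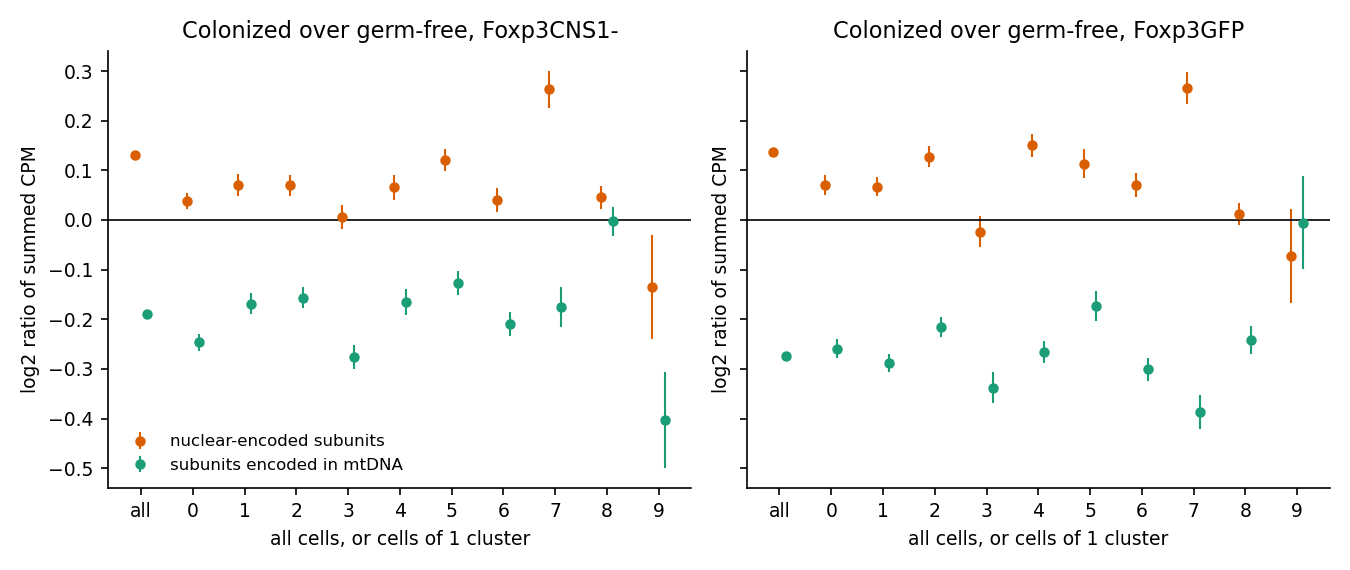
Log2 ratio of summed CPM in the colonized over the germ-free library (y axis) for all cells and for the cells of each cluster (x axis), in Foxp3CNS1- (left) and Foxp3GFP cells (right); orange points are the 78 nuclear-encoded and green points the 13 mitochondrially encoded genes, with 95% counting intervals. Orange points lie above green ones in every cluster of the left panel and in every cluster but 9 of the right panel, and cluster 7 has the highest orange points (0.26 and 0.27).

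Mitochondrially encoded subunit genes were lower after colonization in nearly every cluster. Their summed log2 ratio in cluster 7 was -0.18 in Foxp3CNS1- and -0.39 in Foxp3GFP cells, and the values nearest to 0 were -0.003 in cluster 8 of Foxp3CNS1- and -0.01 in cluster 9 of Foxp3GFP cells.

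Across clusters, cycling-like cells had the highest share of subunit RNA and naive-like cells the lowest. Since the clusters were made from the same cells and genes, this is a description and no test. In cluster 8 the subunit genes summed to 33682 CPM in colonized Foxp3CNS1-, 32632 in germ-free Foxp3CNS1-, 31860 in colonized Foxp3GFP and 31595 in germ-free Foxp3GFP cells. In cluster 1 they summed to 20717, 19727, 19578 and 18688 CPM in the same order of libraries. Cluster 8 ranked first, effector-like cluster 5 in the place numbered 3, cluster 2 ninth and cluster 1 last in each of the 4 libraries, by sums that do not overlap between clusters 8, 5 and 1. Cluster 9 had 26631 to 29240 CPM.

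**Figure D4:**
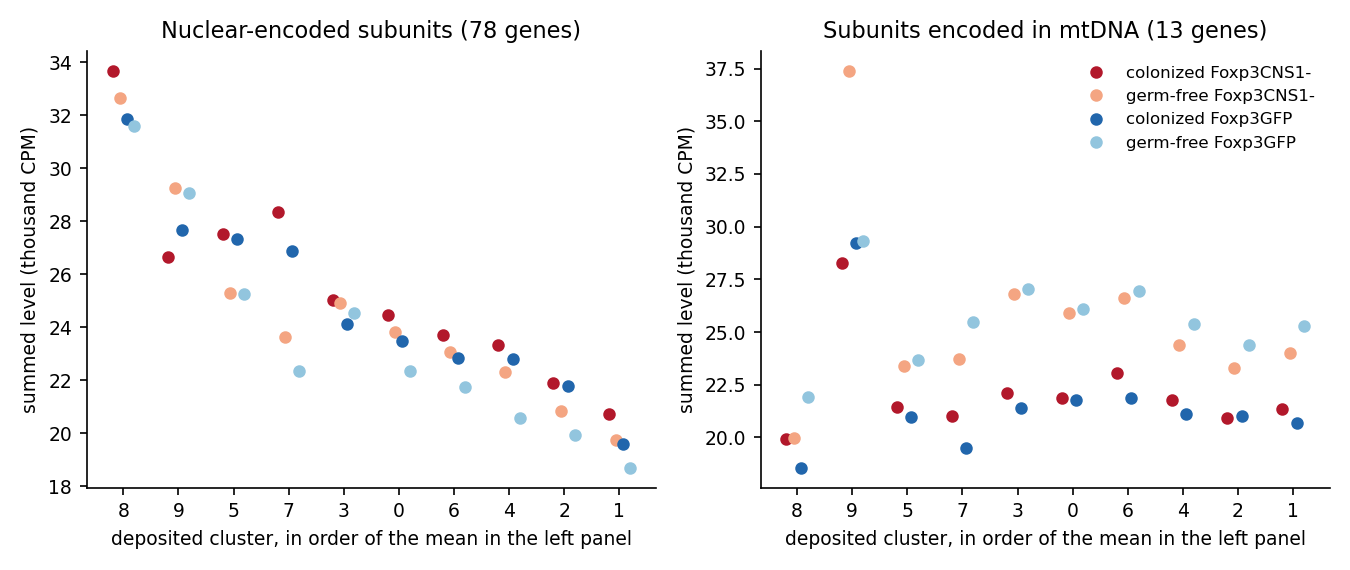
Summed level in CPM, scaled as marked (y axes, which do not start at 0) of the nuclear-encoded (left) and mitochondrially encoded subunit genes (right) in each cluster, in the same order on both x axes; each point is 1 library. The nuclear-encoded sum runs from cluster 8 (31595 to 33682 CPM) to cluster 1 (18688 to 20717 CPM), whereas the mitochondrially encoded sum of most clusters splits by colonization, with germ-free libraries higher.

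Cluster 8 cells also held more RNA: their median was 5250.5 to 7392 UMIs per cell, and an average cell held 297, 218, 289 and 213 member UMIs in the colonized Foxp3CNS1-, germ-free Foxp3CNS1-, colonized Foxp3GFP and germ-free Foxp3GFP libraries. With each cell thinned to 1000 UMIs, subunit genes took a median of 3.2%, 3.3%, 3.0% and 3.0% of a cluster 8 cell in these libraries, against 2.0%, 1.9%, 1.9% and 1.9% of a cluster 1 cell. The unthinned levels are those given above. Thinning leaves the expected share of each cell unchanged, so these values describe the share per cell and cannot separate it from RNA content. The part of RNA content per cell in the higher share of cluster 8 was not tested.

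Most members took part. Against clusters 1 and 2 together, cluster 8 was higher for 73, 72, 72 and 73 of 76 members in the colonized Foxp3CNS1-, germ-free Foxp3CNS1-, colonized Foxp3GFP and germ-free Foxp3GFP libraries, where 67%, 60.4%, 63.8% and 61.7% of all genes were higher. Median log2 ratios were 0.77, 0.73, 0.74 and 0.81, beside 0.35, 0.20, 0.31 and 0.25 over all genes. The 17 complex V genes were higher in each library, with medians of 0.77 to 0.91, and complex III medians were 0.86 to 0.97. The mitochondrially encoded genes did not follow: 1, 1, 2 and 3 of the 12 that passed the minimum were higher. Mitochondrial ribosomal proteins had medians of 0.70 to 0.82 and glycolysis genes of 1.09 to 1.23.

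**Figure D5:**
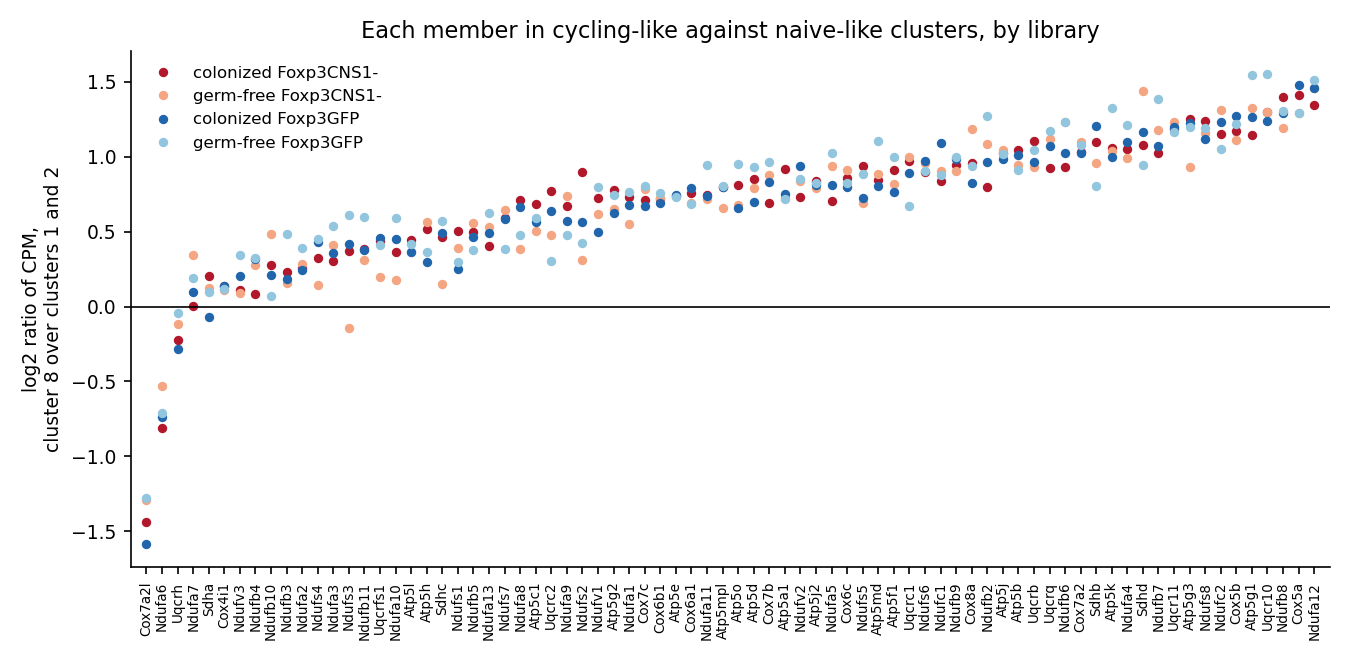
Log2 ratio of CPM in cluster 8 over clusters 1 and 2 (y axis) for each member with at least 500 UMIs over all cells. Members are ordered by the ratio pooled over libraries (x axis), and each point is 1 library. Cox7a2l (-1.58 to -1.28) and Ndufa6 (-0.81 to -0.53) lie far below the others in all 4 libraries, and Ndufa12 and Cox5a lie at the high end.

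The members differed widely in how much they varied by cluster, which was summarised as the SD of log2 CPM over clusters 0 to 8. The largest SDs belonged to Ndufa12 (0.449), Cox5a (0.442), Cox7a2l (0.431), Uqcr10 (0.426), Ndufb8 (0.413), Atp5g1 (0.401), Sdhd (0.390) and Ndufs8 (0.389). Ndufa12 had 319, 363, 331 and 284 CPM in cluster 8 of the colonized Foxp3CNS1-, germ-free Foxp3CNS1-, colonized Foxp3GFP and germ-free Foxp3GFP libraries, against 125, 132, 120 and 99.6 CPM in clusters 1 and 2. Cox5a had 667, 611, 688 and 548 CPM in cluster 8 and 251, 249, 247 and 224 CPM in clusters 1 and 2. The log2 ratio was 1.35 to 1.51 for Ndufa12 and 1.29 to 1.48 for Cox5a over the libraries, which puts both at the high end of the members.

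Cox7a2l ran the other way. It had 343, 342, 314 and 372 CPM in cluster 8 of the same 4 libraries, against 929, 837, 941 and 903 CPM in clusters 1 and 2, so that each library had less of it in cycling-like than in naive-like cells. Pooled over libraries, its level was 938 CPM in cluster 1, 739 CPM in cluster 5, 672 CPM in cluster 3 and 338 CPM in cluster 8. Ndufa6, an accessory subunit of complex I picked after its values were seen, had 239, 271, 249 and 239 CPM in cluster 8 and 418, 392, 415 and 392 CPM in clusters 1 and 2. Uqcrh was slightly lower in cluster 8, with 733, 714, 677 and 778 CPM against 858, 776, 826 and 802 CPM. These 3 members were lower in cluster 8 in each library, while the other genes of complexes III and IV that passed the minimum were higher in each.

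The steadiest members were Cox4i1 (SD 0.081), Uqcrh (0.111), Sdha (0.121), Ndufa7 (0.127), Ndufb3 (0.131), Ndufa2 (0.134), Ndufb4 (0.156) and Ndufv3 (0.161). Cox4i1 had 1065, 985, 1038 and 1020 CPM in cluster 8, against 968, 914, 943 and 941 CPM in clusters 1 and 2. In complex II the catalytic subunit Sdha was among the steadiest and the membrane anchor Sdhd among the most variable members: pooled over libraries Sdha had 149 CPM in cluster 8 and 137 CPM in clusters 1 and 2, and Sdhd had 138 and 63.0 CPM. Subunits of the same complex thus differed in how far their transcript levels varied across these clusters.

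Clusters 5, 0, 3 and 6 were also compared with clusters 1 and 2. In cluster 5, 72, 73, 70 and 71 of 76 members were higher than in clusters 1 and 2 in the 4 libraries in the same order (background 74.7%, 71.6%, 72.7% and 69.2%), with median log2 ratios of 0.39, 0.32, 0.45 and 0.42 beside 0.27, 0.23, 0.29 and 0.25 over all genes. In clusters 0, 3 and 6 together, 73, 71, 72 and 72 of 76 were higher (background 77.8%, 76.1%, 75.4% and 75.4%). Their medians of 0.21, 0.23, 0.18 and 0.23 were no higher than those of all genes, 0.29, 0.27, 0.24 and 0.24. The share of members higher in clusters 0, 3 and 6 thus exceeded the background, but their median difference did not exceed that of all genes.

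Some subunits have isoforms from several genes. Atp5g1, Atp5g2 and Atp5g3 encode the same mature c subunit of the ATP synthase ring with different import peptides, and their use differed by cluster. In cluster 8 Atp5g2 gave 38.8% (37.4 to 40.2) of the UMIs of the 3 genes in colonized Foxp3CNS1-, 36.6% (33.7 to 39.6) in germ-free Foxp3CNS1-, 39.0% (37.2 to 40.9) in colonized Foxp3GFP and 37.1% (34.5 to 39.7) in germ-free Foxp3GFP cells. In cluster 1 it gave 46.5% (44.5 to 48.6), 49.2% (46.1 to 52.2), 50.5% (48.4 to 52.6) and 48.6% (46.2 to 51.0) in the same order. Atp5g1 gave 37.3%, 42.2%, 38.4% and 40.7% in cluster 8, against at most 34.5% in cluster 1 of any library. In each library Atp5g1 thus gave a larger share, and Atp5g2 a smaller share, in cycling-like cluster 8 than in naive-like cluster 1. The level of Atp5g2 itself was higher in cluster 8, at 722, 680, 693 and 709 CPM in the same order. In the naive-like clusters together it was 421, 433.5, 450 and 424 CPM. The binomial intervals of the shares cover counting error only.

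The isoforms known from other tissues were nearly absent. Cox7a1, the heart and muscle partner of Cox7a2, had 76 UMIs over all cells, and Cox6b2, the testis partner of Cox6b1, had 84. Cox7a2 had 320 to 390 CPM and Cox6b1 512 to 612 CPM over the libraries, against at most 1.60 CPM of Cox7a1 and 2.14 CPM of Cox6b2. Of the 76 Cox7a1 UMIs, 33 came from the 640 cells of cluster 8 and 15 from cluster 5, and its level was 6.24 CPM in cluster 8 and 2.80 CPM in cluster 5, beside 0.332 to 2.34 CPM in the other clusters from 0 to 7.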

How the data were processed

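The authors deposited a table of UMI counts per gene and cell, not normalized, with a cell table that gives each cell's library, filter result and cluster. Per the submitters' processing notes, Cell Ranger, Scanpy 1.5.1 and build mm10 were used; the version of Cell Ranger and its filters are not stated there. Of 17478 cells, 227 had no library and 303 were marked as removed, which left 16948. No doublet caller was run here, and 3 value columns of the cell table were not used.

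Counts were summed per library, or per library and cluster, and scaled to the library total to give CPM, with pandas 2.3.3, numpy 2.4.6 and scipy 1.17.1 under Python 3.11.15. Ratios of 2 libraries have exact 95% Clopper-Pearson intervals from the split of the gene's UMIs. Genes with a sum of at least 50 UMIs over the libraries compared entered counts and medians, and a call needs 1.2-fold and an interval that leaves out a ratio of 1. The steps were tested on simulated data. With 1 library per group there was no test.

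The members and lists were chosen with earlier results of these data known. Named are the 3 members of each complex with the highest CPM, up to 10 called members per comparison and direction, members with a tissue-restricted isoform, and the 8 members with the largest and the 8 with the smallest SD of log2 CPM over clusters (members with at least 500 UMIs); others are marked. Alternatives were equal weight per cell, thinning to 1000 UMIs, a fixed cluster mix, a total without ribosomal protein and mitochondrially encoded genes, TMM scaling (edgeR 4.0.16 under R 4.3.3), other folds and minimum counts, and leaving out cells above the 98th percentile of UMIs. Leaving out cells with Hspa1a or Hspa1b UMIs, or with B or plasma cell marker UMIs, and the alternatives within clusters were added after seeing the data. Upstream sequences come from RefSeq, on GRCm38.p6, and gene positions from GENCODE M21, which has a gene of the same name for 77 members.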

Additional observations from a re-analysis of the deposited data

How the results depend on the processing

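The log2 ratio of the summed subunit genes stayed above 0 in all 4 comparisons under each alternative run, but its size depended on how cells and totals were weighted. In the order colonization in Foxp3CNS1-, colonization in Foxp3GFP, strain in germ-free mice and strain in colonized mice, the values from all cells were 0.13, 0.14, 0.10 and 0.09. With a fixed cluster mix they were 0.0656, 0.0853, 0.0669 and 0.0471. With a total that leaves out ribosomal protein and mitochondrially encoded genes they were 0.0999, 0.101, 0.0455 and 0.0446, and with TMM scaling 0.174, 0.163, 0.0432 and 0.0542. Equal weight per cell gave 0.0850 and 0.105 for colonization. Thinning to 1000 UMIs gave 0.0876 and 0.109 for colonization and 0.0800 for strain in colonized mice. With cells past the 98th percentile of UMIs left out, the colonization values were 0.115 and 0.127.

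The number of members past the call, 4, 6, 2 and 0 in the same order, was 36, 43, 28 and 12 with a fold of 1.1, and 0 in the first 3 with a fold of 1.5. With equal weight per cell the colonization counts were 0 and 2. Thinning gave 5 higher and 1 lower for colonization in Foxp3GFP, 2 for colonization in Foxp3CNS1-, 6 for strain in germ-free and 1 for strain in colonized mice. A fixed cluster mix gave 0, 2 and 1 in the first 3, TMM scaling 8, 10 and 1, and the total without ribosomal protein and mitochondrially encoded genes 1 for strain in germ-free mice. Without the cells of most UMIs, 2 were called for colonization in Foxp3CNS1-. In cluster 8 the colonization ratio of Foxp3CNS1- cells was 0.05 from all UMIs and -0.0522 (-0.11 to 0.01) after thinning, a reversal; the cause was not tested.

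No paired analysis was possible because each group has 1 library and the labels give no shared replicate numbers. Counting intervals leave out the spread between mice, sorts and library preparations, so a ratio near 1.1-fold in these data has no measured replicate error to be set against. Genes with few UMIs, such as Cox7a1 and Cox6b2, give no usable ratio at this depth.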

Other observations

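A second clustering in the authors' cell table divides a part of the cells into subsets, which carry numbers only. Subset 8, with 227 cells of which 96.0% belong to cluster 8, had 34817 CPM of subunit genes in colonized Foxp3CNS1-, 32564 in germ-free Foxp3CNS1-, 33162 in colonized Foxp3GFP and 33509 in germ-free Foxp3GFP cells. Subset 7, with 332 cells of which 99.1% belong to cluster 5, had 31803, 27000, 31297 and 26928 CPM in the same order, so that both colonized libraries were above both germ-free ones. These values rest on 156, 76, 70 and 30 cells. Some other subsets showed colonized libraries above germ-free ones in this way, and others, such as subset 8, did not. Subsets 1 and 2 were lowest, at 22479 and 22147 CPM over all libraries.

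The 303 cells that the authors' filter removed had 22788 CPM of subunit genes, within the range of the analysed libraries.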
